A study of Mus musculus with 8 samples.

Results

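The genes described here encode the costimulatory and checkpoint ligands and receptors of the microglial surface, 9 genes chosen by name and found by their Ensembl identifiers among the 52636 identifiers of the count table. They are Cd274, Pdcd1lg2, Cd80, Cd86, Cd40, Cd83, Icosl, Havcr2 and Vsir. The cells were primary microglia of wild-type C57BL/6 mice (C57BL/6N by the study's methods), shaken off mixed glial cultures of newborn brain and kept in 10 ng/ml CSF-1, a growth factor that keeps microglia alive. RNA was sequenced from 4 libraries of cells given 5 µg/ml LPS for 24 h and from 4 libraries of cells given vehicle for the same time. LPS (lipopolysaccharide) is a component of bacterial walls that activates microglia through the receptor TLR4. The labels call the libraries of a group biological replicates but do not say whether they came from separate cultures or animals, so p-values measure the spread between these libraries.

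T cells need a second signal beside antigen, and it is given by surface proteins of the antigen-presenting cell. CD80 and CD86 bind CD28, which activates the T cell, and CTLA-4, which restrains it. PD-L1, the product of Cd274, and PD-L2, the product of Pdcd1lg2, bind the inhibitory receptor PD-1. ICOS ligand, the product of Icosl, binds ICOS. CD40 works in the other direction, since it receives a signal from CD40 ligand on T cells and passes it to NF-kB. CD83 is a membrane protein best known as a marker of mature dendritic cells. TIM-3, the product of Havcr2, and VISTA, the product of Vsir, are checkpoint proteins that myeloid cells themselves carry.

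Expression is given as CPM, counts scaled to a common library size after TMM, a correction for differences in composition between libraries. Library totals ranged from 21370879 to 26129375 counts in vehicle and from 20071921 to 30604447 after LPS. The scaling factors were 1.21 to 1.32 in vehicle and 0.701 to 0.833 after LPS, so the choice of scaling shifts every change by a similar amount. With library totals alone the median log2 fold change of all tested genes moved by -0.68, and 19.0% of the genes called different were higher after LPS against 47.2% with TMM. Each of the 8 tested members kept its direction under every scaling tried. Changes were tested with edgeR (quasi-likelihood, two-sided, 13847 genes tested, Benjamini-Hochberg adjusted p, threshold 0.05), and intervals are 95% intervals of the log2 fold change.

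The expression of microglial markers was high in vehicle, where 10 markers summed to between 9778 and 11529 CPM. After LPS the same sum was between 2614 and 3068 CPM, with 8 of the 10 genes lower, 1 higher (Itgam) and 1 not called (Aif1). The T cell genes Cd3d, Cd3e, Cd3g, Cd247 and Trac had no count in any library, and the summed level of 10 T cell markers was 4.43 to 8.23 CPM in vehicle and 2.18 to 3.25 CPM after LPS. Cd4 made up most of the T cell sum in vehicle (2.73 to 7.11 CPM). It was lower after LPS, while Cd5 was higher and Lck was not called. Of 10 dendritic cell markers, Flt3, Cd209a, Siglech and Klrd1 held at most 3 counts in every library, and the sum was 17.0 to 51.4 CPM in vehicle and 10.2 to 27.2 CPM after LPS. Among the 4 tested, 1 was higher (Xcr1) and 3 were lower (Zbtb46, Batf3 and Itgax). Itgax made up most of the dendritic cell sum in vehicle (12.7 to 48.4 CPM). Of 9 B cell markers, Cd79a, Fcer2a and Blk held at most 3 counts in every library, and the sum was 12.6 to 23.2 CPM in vehicle and 5.78 to 7.79 CPM after LPS. Endothelial markers rose in sum from between 37.3 and 84.3 CPM to between 196 and 272 CPM, with 3 of 4 tested genes higher (Pecam1, Cdh5 and Flt1), whereas Cldn5 had no count and Tek, Ly6c1 and Esam had at most 3 in every library. The sums of monocyte and border macrophage markers were 3073 to 4512 CPM in vehicle and 1280 to 1411 CPM after LPS, with 4 genes lower and none higher. Astrocyte markers summed to 20.6 to 47.7 CPM in vehicle and 41.4 to 124 CPM after LPS, with Gja1 higher (0.87 to 48.6 CPM) and Gfap, Aqp4 and Aldh1l1 lower, and Gjb6 had no count in any library. Markers of oligodendrocyte precursors (OPC) summed to 28.9 to 151 CPM in vehicle and 65.3 to 145 CPM after LPS, with Vcan higher (16.6 to 61.2 CPM) and Cspg4, Olig1 and Olig2 lower. The part of these other cell types in the changes below was not tested. In bulk RNA a smaller number of cells of a type and less RNA per cell cannot be told apart.

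After LPS, 4 of the 8 tested members were higher (Cd274, Cd40, Cd80 and Cd86), 3 were lower (Cd83, Icosl and Vsir), and Havcr2 did not pass the test. Pdcd1lg2 had too few counts to pass the filter on low values and was not tested. Among all tested genes, 30.3% were called higher and 33.8% were called lower. The median log2 fold change was 0.40 over the 8 tested members and -0.11 over all tested genes. The LPS and vehicle libraries did not overlap for 8 of the 9 members, against 60.2% of all tested genes. All of these counts describe the list and are no test of it.

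**Figure D1:**
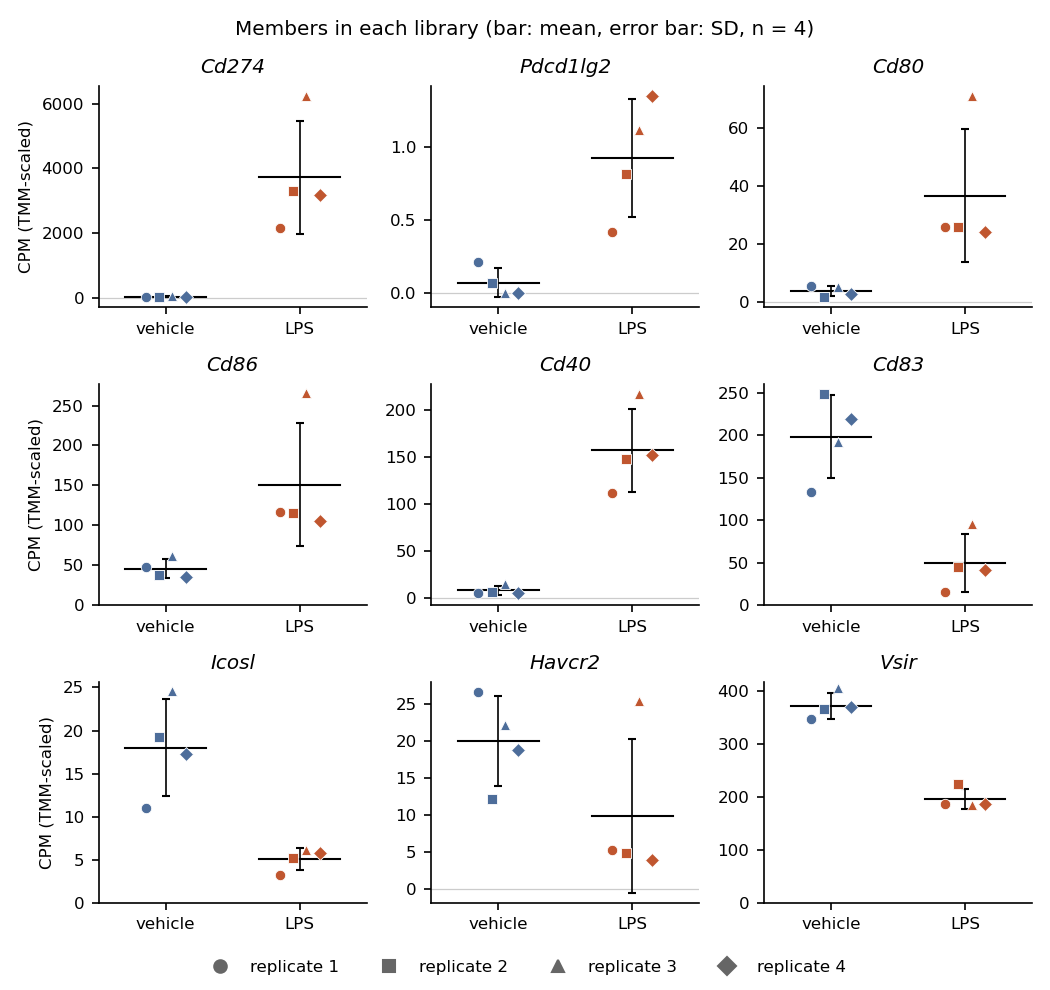
CPM of each of the 9 members in the 4 vehicle (blue) and 4 LPS (orange) libraries, with the mean as a bar, the SD as an error bar and the replicate number as the marker shape; each panel has its own linear axis. Cd274 went from at most 45.2 CPM to at least 2168 CPM, and the triangle of LPS replicate 3 stands above the other LPS libraries for Cd80, Cd86 and Havcr2.

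The member with the greatest change was Cd274, the gene of PD-L1 on chromosome 19 from 29367455 to 29388095 (GRCm38, plus strand). In vehicle it was at 40.0, 31.6, 45.2 and 22.05 CPM in replicates 1 to 4. After LPS it was at 2168, 3301, 6238 and 3182 CPM. The groups were far apart, and the lowest LPS library lay above the highest vehicle library by more than an order of magnitude. The mean went from 34.7 ± 10.1 to 3722 ± 1753 CPM (SD, n = 4 each), a 107-fold difference. The log2 fold change was 6.74 (standard error 0.42, interval 5.79 to 7.70, edgeR adjusted p = 1.28e-06), and only 118 of the tested genes had a larger one. As a share of raw counts with no scaling factor, the rise was from 0.00435% to 0.287%, which is 65.9-fold. Cd274 ranked between 3659 and 5700 among all genes by count in vehicle libraries and between 19 and 62 after LPS. A gene annotated on the opposite strand covers 14.1% of the exonic bases of Cd274, so part of these reads could belong to that gene if the counting ignored strand.

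The RNA of PD-L2, the other ligand of PD-1, did not reach a comparable level. Pdcd1lg2 lies 22823 bases downstream of Cd274 on the same strand, from 29410919 to 29471161. It had 6, 2, 0 and 0 counts in vehicle replicates 1 to 4 and 7, 15, 24 and 25 counts after LPS. These counts correspond to 0.070 ± 0.099 CPM in vehicle and 0.93 ± 0.40 CPM after LPS (SD, n = 4 each), and all LPS libraries were above all vehicle libraries. When the filter on low counts was dropped, the log2 fold change was 3.63 (standard error 0.78, edgeR adjusted p = 0.00147), and DESeq2 gave 3.81 (standard error 0.85, adjusted p = 2.87e-05). The vehicle value rests on 8 counts in all, so the size of this change is poorly determined.

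The DNA before the start of these neighbouring genes is shown because they share a receptor and a chromosomal neighbourhood, and that of Havcr2 because its level varied between LPS libraries. The sequences are the 250 bases upstream of the RefSeq start (GRCm38.p6, plus strand, 5′ to 3′), and capitals mark matches to the motifs searched.
Cd274, chr19:29367188-29367437: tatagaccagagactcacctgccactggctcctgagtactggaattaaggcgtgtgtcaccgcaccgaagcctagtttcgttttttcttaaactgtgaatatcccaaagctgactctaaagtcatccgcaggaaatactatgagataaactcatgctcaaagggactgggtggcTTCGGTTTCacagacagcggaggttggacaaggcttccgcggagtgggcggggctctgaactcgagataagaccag
Pdcd1lg2, chr19:29410669-29410918: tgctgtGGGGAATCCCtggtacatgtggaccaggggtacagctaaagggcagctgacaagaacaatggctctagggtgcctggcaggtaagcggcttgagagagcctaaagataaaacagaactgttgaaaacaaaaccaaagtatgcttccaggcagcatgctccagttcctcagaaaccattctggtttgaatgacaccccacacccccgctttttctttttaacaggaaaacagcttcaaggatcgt
Havcr2, chr11:46454681-46454930: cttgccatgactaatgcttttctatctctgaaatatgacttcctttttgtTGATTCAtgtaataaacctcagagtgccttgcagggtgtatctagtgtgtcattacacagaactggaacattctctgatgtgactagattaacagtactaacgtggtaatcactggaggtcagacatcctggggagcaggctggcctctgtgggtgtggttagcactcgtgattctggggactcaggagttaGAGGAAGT

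A window of 300 bases, 250 before the RefSeq start and 50 after it, was searched on both strands for 5 motifs, and RefSeq windows were at hand for 6 of the 9 members. The motifs were the NF-kB motif, ISRE (GAAANNGAA, bound by interferon regulatory factors), GAS (TTCNNNGAA, bound by STAT factors), AP-1 (TGANTCA) and PU.1 (GAGGAAGT, a factor of myeloid cells). In Cd274 the capitals mark an ISRE match on the reverse strand at -76 to -68, counted from the start. In Pdcd1lg2 they mark an NF-kB match at -244 to -235. In Havcr2 they mark an AP-1 match at -200 to -194 and a PU.1 match at -8 to -1. Cd80 held an AP-1 match at -42 to -36 of its RefSeq start, which lies 3372 bases inside the gene as GENCODE vM21 draws it. Icosl and Vsir held no match in their windows. Among 32851 such windows of all genes, 4.51% held an NF-kB match, 8.56% an ISRE, 8.30% a GAS, 7.81% an AP-1 and 3.20% a PU.1 match. A match of letters is a description and does not show that a factor binds there. Cd86, Cd40 and Cd83 are named only.

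The RNAs of both ligands of CD28 and CTLA-4 rose. Cd80 (chromosome 16, 38455561 to 38496335) was at 5.43, 1.56, 4.98 and 2.80 CPM in vehicle replicates 1 to 4. It was at 26.0, 25.7, 71.1 and 24.0 CPM after LPS. The groups did not overlap, and LPS replicate 3 stood apart from the other 3 LPS libraries, which averaged 25.2 ± 1.09 CPM (SD, n = 3). The mean went from 3.69 ± 1.83 to 36.7 ± 22.9 CPM (SD, n = 4 each), with a log2 fold change of 3.31 (standard error 0.49, interval 2.22 to 4.40, edgeR adjusted p = 2.37e-04).

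Cd86 (chromosome 16, 36603869 to 36666081, minus strand) was the more abundant of this pair in every library. It was at 47.0, 37.3, 61.5 and 35.6 CPM in vehicle replicates 1 to 4 and at 117, 116, 266 and 106 CPM after LPS. LPS replicate 3 was again the highest, 2.36 times the mean of the other LPS libraries, and the groups did not overlap. The mean rose from 45.4 ± 11.9 to 151 ± 76.6 CPM (SD, n = 4 each), with a log2 fold change of 1.73 (standard error 0.32, interval 1.02 to 2.45, edgeR adjusted p = 9.72e-04).

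The balance between these ligands was measured as the ratio of their counts within a library, which does not depend on scaling. Cd86 had 8.67, 24.0, 12.4 and 12.7 times the counts of Cd80 in vehicle replicates 1 to 4. After LPS it had 4.50, 4.50, 3.74 and 4.41 times the counts. The log2 ratio fell from 3.75 ± 0.61 to 2.10 ± 0.13 (SD, n = 4 each), a difference of -1.65 in which every LPS library lay below every vehicle library. A two-sided exact permutation test over 70 divisions gave p = 0.0286, the smallest p that this test allows. Adjustment of this test over 3 ratios gave 0.0429. The adjusted value is this low only because the Pdcd1lg2 to Cd274 ratio below had the same p, which rests on an added count. A larger p for that ratio would raise it, so the adjusted value is not read as passing a threshold. Within same-numbered pairs the exact sign-flip permutation test gave p = 0.125, which is also the smallest p that 4 pairs allow.

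For the ligands of PD-1 the ratio of Pdcd1lg2 to Cd274 was taken with 1 count added to each, since Pdcd1lg2 had no count in vehicle replicates 3 and 4. The log2 ratio was -8.84 ± 1.35 in vehicle and -11.9 ± 0.54 after LPS (SD, n = 4 each), a difference of -3.05 (two-sided exact permutation test p = 0.0286, adjusted p = 0.0429). The sign-flip permutation test within pairs gave p = 0.125. The separation of the groups comes from the added count. Without it the ratio is 0 in vehicle replicates 3 and 4, below all LPS libraries (1.79e-04 to 4.25e-04), while it is 0.00525 and 0.00219 in vehicle replicates 1 and 2, above them. No direction is therefore read from this ratio.

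**Figure D2:**
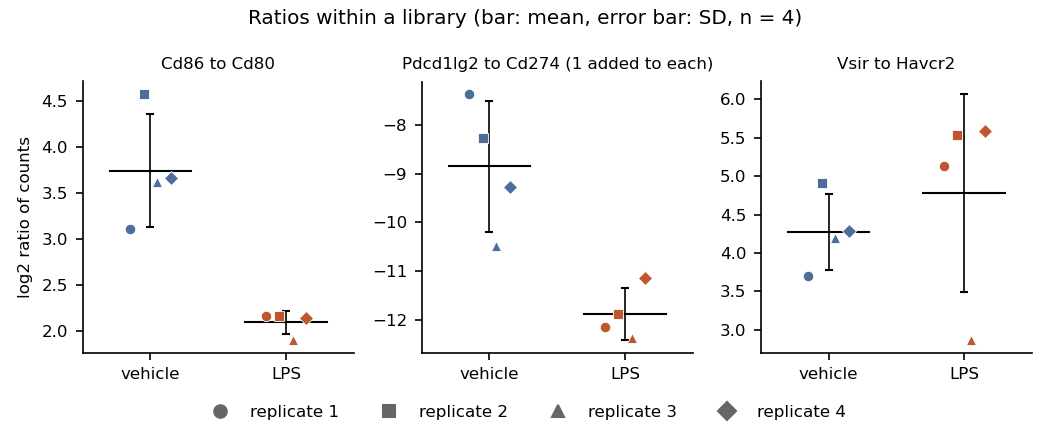
Log2 ratio of counts within each library for 3 pairs of members (1 count added to both genes for Pdcd1lg2 to Cd274 only), with the mean as a bar, the SD (n = 4) as an error bar and the replicate number as the marker shape. The Cd86 to Cd80 ratio was lower in all LPS libraries than in all vehicle libraries. The Pdcd1lg2 to Cd274 points of vehicle replicates 3 and 4, which have no Pdcd1lg2 count, lie above the LPS libraries only through the added count, and the Vsir to Havcr2 ratio of LPS replicate 3, at 2.86, lay below every vehicle library and the other LPS libraries lay above 5.1.

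CD40 is the receptor through which helper T cells act on antigen-presenting cells. Cd40 (chromosome 2, 165055627 to 165072948) was at 5.04, 6.37, 15.1 and 5.11 CPM in vehicle replicates 1 to 4. It was at 112, 149, 218 and 152 CPM after LPS. The groups did not overlap, and replicate 3 was the highest library of both groups. The mean rose from 7.90 ± 4.83 to 158 ± 44.1 CPM (SD, n = 4 each), a 19.9-fold difference. The log2 fold change was 4.31 (standard error 0.40, interval 3.42 to 5.21, edgeR adjusted p = 1.31e-05), and 319 tested genes had a larger rise.

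Cd83 and Icosl moved in the opposite direction. Cd83 (chromosome 13, 43784775 to 43803132) was at 133, 249, 192 and 219 CPM in vehicle replicates 1 to 4. It was at 15.7, 45.1, 95.9 and 40.7 CPM after LPS. The groups did not overlap, but the LPS libraries spread widely, with replicate 1 the lowest and replicate 3 the highest. The mean fell from 198 ± 49.3 to 49.4 ± 33.6 CPM (SD, n = 4 each), with a log2 fold change of -2.0 (standard error 0.45, interval -3.02 to -0.99, edgeR adjusted p = 0.00337). Within same-numbered pairs the log2 difference ran from -3.08 in replicate 1 to -1.0 in replicate 3.

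Icosl (chromosome 10, 78069302 to 78083913) was at 11.0, 19.3, 24.6 and 17.3 CPM in vehicle replicates 1 to 4. It was at 3.23, 5.23, 6.11 and 5.79 CPM after LPS. Replicate 1 was the lowest library of each group and the groups did not overlap. The mean fell from 18.0 ± 5.64 to 5.09 ± 1.29 CPM (SD, n = 4 each), with a log2 fold change of -1.82 (standard error 0.27, interval -2.43 to -1.21, edgeR adjusted p = 2.75e-04). The log2 difference within pairs was between -2.01 and -1.58, a narrower range than for Cd83.

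Of the RNAs of the checkpoint proteins that myeloid cells carry, that of VISTA was the more abundant. Vsir (chromosome 10, 60346851 to 60372684) was at 347, 366, 406 and 369 CPM in vehicle replicates 1 to 4. It was at 187, 224, 185 and 187 CPM after LPS. The groups did not overlap and the spread within each was the smallest, relative to its mean, among the members. The mean fell from 372 ± 24.6 to 196 ± 18.6 CPM (SD, n = 4 each), with a log2 fold change of -0.93 (standard error 0.11, interval -1.17 to -0.68, edgeR adjusted p = 6.34e-05). With library totals alone the change was -1.60.

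Havcr2 (chromosome 11, 46454935 to 46481255) was at 26.7, 12.2, 22.1 and 18.9 CPM in vehicle replicates 1 to 4. It was at 5.33, 4.85, 25.5 and 3.89 CPM after LPS. In this gene alone among the members the groups overlapped, since LPS replicate 3 was higher than all vehicle libraries but the first. The log2 fold change was -1.0 (standard error 0.57, interval -2.28 to 0.27, edgeR adjusted p = 0.146), so the interval includes both no change and a fall larger than that of Cd83. Without LPS replicate 3 it was -2.09 (edgeR adjusted p = 2.08e-04), and without replicate 3 of both groups -1.96 (edgeR adjusted p = 7.78e-04). With the replicate number as a block it was -1.41 (edgeR adjusted p = 0.0176), and with library totals alone -1.76 (edgeR adjusted p = 0.0136). Pair 3 differed by 0.20 on the log2 scale, and the other pairs by -2.33, -1.33 and -2.28. The ratio of Vsir to Havcr2 counts was 12.99 to 29.97 in vehicle, and after LPS it was 7.28 in replicate 3 and 35.1 to 48.1 in the others (difference of the log2 ratio 0.50, exact permutation test p = 0.486).

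**Figure D3:**
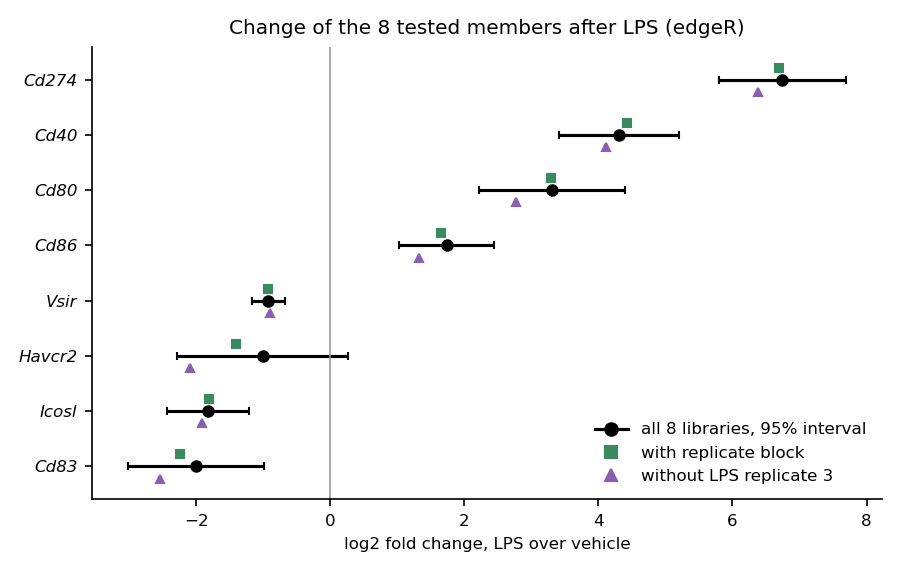
Log2 fold change after LPS of the 8 tested members (black, with the 95% interval from edgeR), with the value from a replicate block (green squares) and without LPS replicate 3 (purple triangles). The interval of Havcr2, from -2.28 to 0.27, is the only one that includes 0, and its value without LPS replicate 3 is -2.09.

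LPS replicate 3 was the highest LPS library for 7 of the 9 members, against 40.8% of all tested genes, and it was also the library with the most counts. Its scaling factor was 0.701 against 0.816 to 0.833 in the other LPS libraries, which raises its CPM relative to theirs. By share of raw counts Icosl was higher in LPS replicate 4 (0.000474%) than in replicate 3 (0.000428%). The CPM of LPS replicate 3 exceeded the mean of the other LPS libraries 5.43-fold for Havcr2, 2.83-fold for Cd83, 2.82-fold for Cd80, 2.36-fold for Cd86, 2.16-fold for Cd274, 1.58-fold for Cd40 and 1.29-fold for Icosl. Vsir was at 0.930 times that mean. Summed microglial markers were at 2790 CPM in this library, inside the range of the other LPS libraries. Its dendritic cell markers summed to 27.2 CPM, above the other LPS libraries at 10.2 to 24.5 CPM. Of this sum Xcr1 made up 17.7 CPM, while Zbtb46 (0) and Batf3 (0.14) were the lowest of the LPS libraries. Its endothelial markers summed to 196 CPM, below the others at 249 to 272 CPM. In this library Flt1 was at 86.3 CPM against 187 to 197 in the others, while Pecam1 (68.7) and Kdr (33.2) were the highest. Its OPC markers (65.3 CPM against 69.1 to 145) and B cell markers (5.78 CPM against 7.24 to 7.79) were also below the others. Of its OPC sum Vcan made up 60.7 CPM, inside the range of the other LPS libraries (37.2 to 104). Every other OPC marker was lowest in this library, with Ptprz1 at 1.40 CPM against 9.64 to 13.5 and Tnr at 1.17 against 7.57 to 13.9. Vehicle replicate 3 was the lowest vehicle library for astrocyte markers (20.6 CPM against 38.2 to 47.7) and OPC markers (28.9 against 98.6 to 151), and the highest for microglial (11529 against 9778 to 10170) and macrophage markers (4512 against 3073 to 3465). The part of these differences in the values of replicate 3 was not tested. Without it, the 7 members called with all libraries kept their calls.

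Levels of different genes were compared as CPM per kilobase of exon. In vehicle, Cd83 (77.1) and Vsir (74.2) were the most abundant members, and their ranges overlapped. Cd86 (12.4), Cd274 (9.59), Havcr2 (7.34), Icosl (3.90) and Cd40 (2.32) followed, each overlapping its neighbour in this order. Cd80 (1.00) and Pdcd1lg2 (0.036) were below Cd40 and did not overlap their neighbours. After LPS the order changed. Cd274 stood first at 1028 on this scale, a level ranked 53 among all genes, and its lowest library (598) was above the highest library of the next member (63.9). Cd40 (46.3), Cd86 (41.2), Vsir (39.0), Cd83 (19.2), Cd80 (9.91) and Havcr2 (3.63) came next, each overlapping its neighbour. Icosl (1.10) and Pdcd1lg2 (0.47) were the lowest, without overlap.

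**Figure D4:**
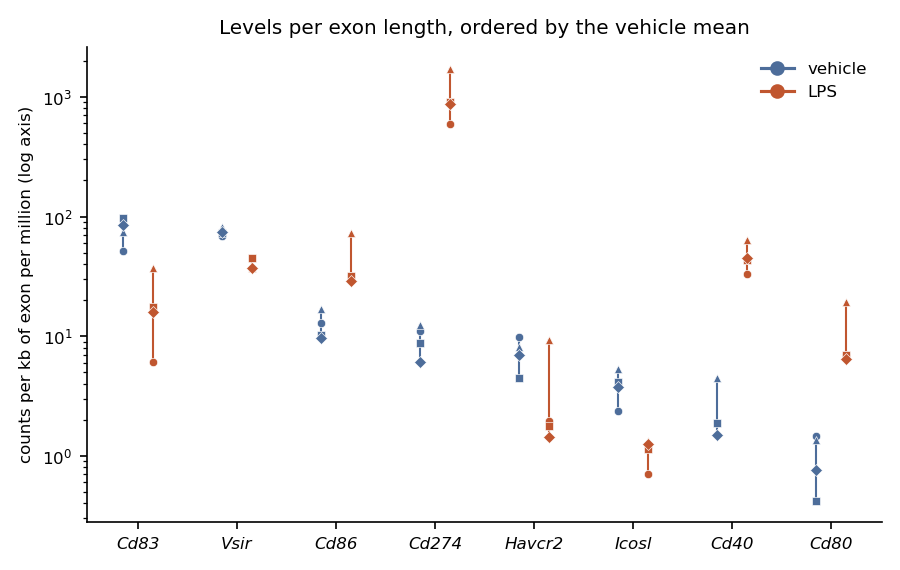
Level per exon length (log axis, the unit used above) in each vehicle (blue) and LPS (orange) library for 8 members, ordered by the vehicle mean; lines join the lowest and highest library, and Pdcd1lg2 is left out because libraries at 0 cannot be drawn. Cd83 and Vsir led in vehicle at 77.1 and 74.2, and Cd274 led after LPS at 1028.

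Most receptors that T cells use for these ligands had few or no counts. Pdcd1 had no count in vehicle and 2, 3, 4 and 1 counts in LPS replicates 1 to 4. Ctla4 had 3 counts in vehicle replicate 3 and none elsewhere, and Cd40lg had no count in any library. Icos had 16, 20, 9 and 12 counts in vehicle and 0, 0, 2 and 0 after LPS. Where no read was counted, a level of up to 3 counts per library remains possible from counting error alone. Cd28, the activating receptor of CD80 and CD86, was in contrast well detected, at 51.8, 97.1, 96.5 and 94.5 CPM in vehicle and at 6.58, 11.0, 17.6 and 9.47 CPM after LPS. Its groups did not overlap and its log2 fold change was -2.92 (standard error 0.31, edgeR adjusted p = 3.25e-05). Of the 4 tested genes among 8 counter-receptors, 3 were lower (Cd28, Igsf11 at -1.34 and Hmgb1 at -1.82) and none was higher, with a median of -1.58. For this list and those below, the shares of all tested genes were 30.3% higher and 33.8% lower, with a median of -0.11. The list counts are descriptions and no test of a list. Igsf11 is a partner of VISTA, and Hmgb1 encodes a nuclear protein that TIM-3 binds. Hmgb1 has near-identical copies in the genome, so its count of uniquely aligned reads is uncertain. With DESeq2 or without the filter on low counts, Pdcd1 was called higher and Icos lower, both on few counts.

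Among other ligands related to the members, more were called higher than lower. Of 12 tested genes among 15 found in this list, 7 were higher, 3 were lower and 2 were not called, with a median log2 fold change of 0.91, and with library totals alone 5 were higher and 4 lower. Pvr, a ligand of TIGIT and CD226, rose from 12.9 ± 1.15 to 116 ± 35.2 CPM (log2 fold change 3.17, edgeR adjusted p = 1.38e-06). Cd200, whose product restrains myeloid cells through CD200R, rose from 1.61 ± 0.76 to 14.0 ± 10.6 CPM (3.13, edgeR adjusted p = 7.20e-04), with 29.9 CPM in LPS replicate 3 and at most 9.30 in the others. Lgals9, which encodes the TIM-3 ligand galectin-9, rose from 209 ± 62.1 to 841 ± 172 CPM (2.01, edgeR adjusted p = 4.85e-05). The genes that fell were Cd276 (-1.27), which encodes B7-H3, Cd48 (-0.38), which encodes a ligand of CD2 and CD244, and Vsig4, a complement receptor that also inhibits T cells. Vsig4, named after its values were seen, went from 21 to 41 counts per vehicle library to no count after LPS, which is at least 6.46-fold lower.

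Among the TNF family ligands, which costimulate T cells through receptors related to CD40, 4 of 7 were tested and 2 were higher. Tnfsf9, the ligand of 4-1BB, rose from 6.32 ± 1.15 to 60.1 ± 4.95 CPM (log2 fold change 3.25, edgeR adjusted p = 2.24e-07). Tnfsf15, which encodes TL1A, rose from 0.78 ± 1.01 to 71.8 ± 33.2 CPM (6.48, edgeR adjusted p = 3.40e-05). None was lower, and the median was 2.08. Of 12 inhibitory receptors, 6 were tested, of which 2 were higher and 3 were lower, with a median of -0.39. Pirb, a receptor for MHC class I, rose by a log2 fold change of 2.65 and Timd4, a receptor for phosphatidylserine, by 2.23. Cd300a (-3.53), Cd200r1 (-1.43), the receptor of CD200, and Sirpa (-0.82), the receptor of CD47, were lower. Pirb shares sequence with the Pira genes, so its count is uncertain in the same way as that of Hmgb1.

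The genes that carry the CD40 signal were a list of 16, all tested, of which 11 were higher, none was lower and 5 were not called. The median log2 fold change was 0.55, against -0.11 over all tested genes, of which 30.3% were called higher. Traf1, an adaptor of TNF receptors, rose from 2.01 ± 0.92 to 344 ± 66.4 CPM (log2 fold change 7.41, edgeR adjusted p = 3.21e-07). Tnfaip3, which encodes the NF-kB inhibitor A20, rose by 4.64 and Birc3, a ubiquitin ligase of the same receptors, by 2.36. These counts depended on scaling. With library totals alone 6 were higher and 4 lower, and Birc2, Chuk, Rela and Traf6, called higher with TMM, had values below 0 that did not pass the test. The same pathway also responds to TLR4, so the list is not specific to CD40.

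Proteins that set how much of these ligands stays at the surface made up a list with 6 tested genes, of which 1 was higher and 3 were lower, with a median of -0.29. March1, a ubiquitin ligase that removes CD86 from the surface, rose from 96.1 ± 30.2 to 565 ± 18.1 CPM (log2 fold change 2.56, edgeR adjusted p = 7.22e-06). Cmtm4, which stabilises PD-L1, fell from 94.4 ± 10.9 to 30.7 ± 1.46 CPM (-1.62, edgeR adjusted p = 1.65e-06). Cmtm6, which has the same role, was at 222 ± 22.7 and 222 ± 17.4 CPM (0.01, edgeR adjusted p = 0.971), and with library totals alone its change was -0.67. The surface proteases Adam10 (-1.0) and Adam17 (-0.58) were lower. With library totals alone 5 genes of this list were lower. Cmtm6 was named after its values were seen.

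**Figure D5:**
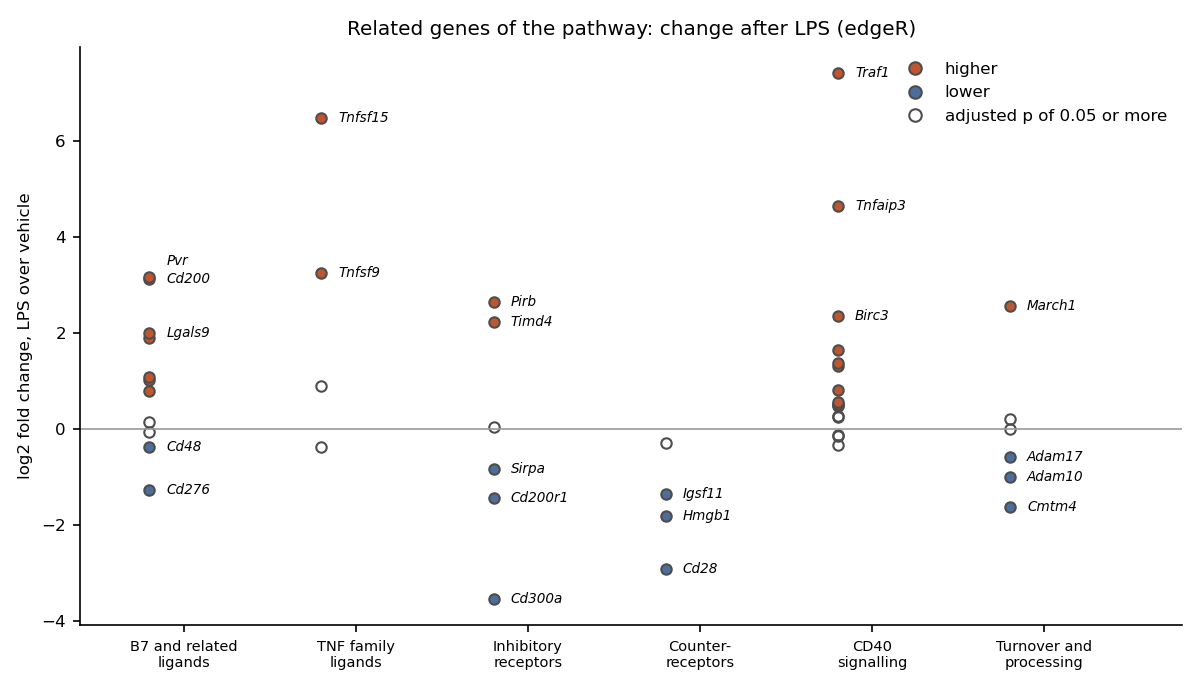
Log2 fold change after LPS of the tested genes of the 6 related lists; orange circles were higher, blue circles lower, and open circles had an adjusted p of 0.05 or more in edgeR, with the named genes labelled and Vsig4 left out because it had no count after LPS. Traf1 (7.41) and Tnfsf15 (6.48) rose most, and Cd300a (-3.53) and Cd28 (-2.92) fell most among the genes drawn.

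The genes whose profiles over the 8 libraries were closest to those of the members were found by the root mean square difference of log2 CPM, each gene centred on its mean, among 8087 genes that averaged 3 or more on the log2 CPM scale. For Cd274 they were Ankrd33b (0.391) and Ifit1bl1 (0.409), and for Cd40 Il18bp (0.216) and Tmem171 (0.226). Il18bp encodes a secreted inhibitor of interleukin-18. For Cd80 they were Fth1 (0.440), the heavy chain of ferritin, and Kctd12 (0.445), and for Cd86 Cd164 (0.180) and the chemokine gene Ccl6 (0.187). The closest to Cd83 were Kitl (0.259), the ligand of the receptor KIT, and Dusp22 (0.328). The closest to Icosl were Cep128 (0.198) and Tmem8 (0.203), and the closest to Vsir were Zfp282 (0.061) and Hsd17b11 (0.072). The difference is small where a gene changes little, so these values are not comparable between members.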

How the data were processed

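RNA of 8 libraries (4 LPS, 4 vehicle) was analysed. The authors filtered reads with HTSeqGenie, aligned them to GRCm38 with GSNAP and deposited raw counts of uniquely aligned reads per Ensembl gene, with no normalization. The library kit and sequencer in the labels differ from those in the paper, and use of strand in counting is not stated. Symbols and exon lengths were taken from GENCODE vM21, which held 52489 of the 52636 identifiers; the rest held 0.0051% of the counts.

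Counts were tested with edgeR 4.0.16 in R 4.3.3 (TMM, filterByExpr with a minimum count of 10 and total of 15). Tables were made with Python 3.11.15, pandas 2.3.3 and scipy 1.17.1, and figures with matplotlib 3.10.9. Both tools were first tested on simulated counts. The alternatives were DESeq2 1.42.0, upper quartile and RLE normalization, no filter, at least 10 counts in every library, a replicate block, an adjusted p of 0.01 and leaving out each library. Leaving out replicate 3 of both groups and scaling by library totals only were chosen after seeing the data, as was adding 1 count in the ratio of Pdcd1lg2 to Cd274, planned without it. Deviations of same-numbered vehicle and LPS libraries from their group means, over 8382 genes, correlated in every pair, with r = 0.361 (replicate 1), 0.183 (2), 0.183 (3) and 0.130 (4). Each exceeds 0.1, but so do vehicle replicate 2 with LPS replicate 4 (0.154) and vehicle replicate 4 with LPS replicate 2 (0.141). For replicates 2 and 4 the correlations therefore do not single out the same-numbered pairs. For replicates 1 and 3 they do, since every correlation with a library of another number was negative. The main fit was unpaired, and pairs were used only in the replicate block, the sign-flip tests and the differences within pairs.

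The members and lists were chosen with earlier results of these data known. Named genes are the members, up to 3 called genes per list and direction averaging 0 or more in log2 CPM, the receptors of the members, and the 2 genes closest in profile to each called member. A B cell marker of the fixed list is not reported here.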

Additional observations from a re-analysis of the deposited data

Results flagged for a closer look

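In groups of 4 libraries, the library farthest from the others was compared with Dixon's 95% limit for its gap over the whole range. Of 64 groups of members and named genes checked, 13 passed it, and chance alone flags about 1 in 20. LPS replicate 3 was the highest in 7 of these 13. It was at 71.1 CPM for Cd80 (next library 26.0), 266 for Cd86 (117), 25.5 for Havcr2 (5.33), 29.9 for Cd200 (9.30), 1098 for Lgals9 (777), 169 for Pvr (105) and 215 for Adam10 (171). Vehicle replicate 3 was the highest for Cd40 at 15.1 CPM (6.37) and for Tnfsf15 at 2.28 CPM (0.42), and the lowest for Cd276 at 1.65 CPM (3.98). Vehicle replicate 1 was the highest for Adam10 at 395 CPM (351) and the lowest for Cd28 at 51.8 CPM (94.5). LPS replicate 2 was the highest for Vsir at 224 CPM (187).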

How the results depend on the processing

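Of 415 values under alternative settings, 390 stayed on the same side of their threshold or within 1.5 times the count. No log2 fold change of a member and no difference of a ratio changed sign, while counts of called genes have no sign to change. Some list genes did turn. With library totals only, Birc2, Chuk, Rela and Traf6 fell below 0 without passing the test. Cmtm6, March8 and Traf3, not called with TMM, fell below 0 and were called lower. Ceacam1 (-0.50), Lag3 (-0.62) and Relb (-0.36) also fell below 0 and were called under neither scaling. With upper quartile normalization Cmtm6 (-0.15) and Lag3 (-0.11) fell below 0 without passing the test. The 7 called members kept their calls under every setting. Havcr2 (-1.0) passed the threshold with a replicate block (-1.41) and with library totals only (-1.76). It also passed without LPS replicate 3 (-2.09) and without replicate 3 in both groups (-1.96). With 1 library left out its value ranged from -2.09 to -0.73. The replicate block changed no other call of a member. It lifted the exact p to 0.125 for the Cd86 to Cd80 ratio (-1.65) and the Pdcd1lg2 to Cd274 ratio with 1 count added (-3.05), where 4 pairs allow no smaller p. Without replicate 3 in both groups these were -1.63 and -3.43 (exact permutation p = 0.1, the smallest that 3 against 3 allow). With 1 library left out, the Pdcd1lg2 to Cd274 ratio ranged from -3.60 to -2.55 and its exact permutation p from 0.0286 to 0.0571, the latter without any one LPS library. With library totals only, 6 CD40 signalling genes were higher and 4 lower, 5 turnover genes were lower and 1 TNF family ligand was lower. Upper quartile normalization, which moved the median of all genes by -0.16, gave 1 lower CD40 signalling gene and 39.6% of calls higher. With at least 10 counts in every library 1 TNF family ligand was higher, since Tnfsf15, with 6 counts in vehicle replicates 2 and 4, was not tested. With DESeq2 and with no filter, which also test genes that the main filter leaves out, 4 inhibitory receptors and 1 counter-receptor were higher. For turnover genes called higher, leaving out 1 library gave 1 to 2 and leaving out replicate 3 of both groups gave 2. The cause of the other shifts was not tested. Depth limits Pdcd1lg2, Pdcd1, Icos, Ctla4 and Cd40lg, and intervals and floors cover counting error or the spread of 4 libraries only.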

Other observations

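Some genes of the marker lists for other cell types changed after LPS and are given as values, chosen after their values were seen. Pecam1, which encodes an adhesion molecule that also carries an inhibitory motif, rose from 2.60 to 52.3 CPM (log2 fold change 4.33, edgeR), and Cdh5 from 0.95 to 7.504 CPM (2.98). Xcr1, a chemokine receptor of cross-presenting dendritic cells, rose from 0.50 to 8.64 CPM (4.11), while Zbtb46, a transcription factor of that lineage, fell from 2.29 to 0.13 CPM (-4.17). The dendritic cell markers Batf3 (1.09 to 0.45 CPM, -1.27) and Itgax (25.2 to 9.18 CPM, -1.46) also fell, so 3 of the 4 tested were lower. Cd4, the T cell coreceptor, fell from 4.75 to 0.60 CPM (-2.99), and Cd22, an inhibitory receptor of B cells, fell from 17.1 to 5.79 CPM (-1.56). In the same lists the T cell gene Cd5 rose from 0.32 to 0.76 CPM (1.25) and the B cell gene Ms4a1 from 0.23 to 0.88 CPM (1.91). Means are over 4 libraries per group, and each of these genes passed an edgeR adjusted p of 0.05.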
